A study of Mus musculus with 29 samples.

Results

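The genes described here are receptors of the macrophages that line the sinuses of lymph nodes and the marginal zone of the spleen, together with 1 secreted protein of the same cells. The list named 7 genes, *Marco*, *Cd209b*, *Cd209g*, *Timd4*, *Siglec1*, *Cd5l* and *Cd163*, and 6 of them were found by symbol among the 13982 genes of the table. *Cd163* was not analysed here. The genes were chosen by their higher values in lymph nodes than in tertiary lymphoid structures (TLS) of proteinuric mice, so that contrast is given as a description with no test.

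The 14 libraries came from NZB/W mice, the (NZBxNZW)F1 hybrid of inbred strains, which develops lupus with age without any added gene or treatment. Renal lymph nodes gave 7 libraries: 1 from a young mouse (mouse C45, aged 4 weeks), 3 from mice positive for anti-dsDNA antibody for under 5 weeks (mice D10, D11 and L25, aged 28, 29 and 18 weeks) and 3 from proteinuric mice (mice H6, H20 and H117, aged 39, 36 and 32 weeks). Proteinuric mice also gave 3 libraries of TLS (mice H6, H20 and H115, the last aged 25 weeks) and 4 of kidney tissue (mice H6, H20, H115 and H117). TLS are lymphocyte aggregates with T- and B-cell areas, and they were dissected by hand under a loupe from the kidney that gave the kidney tissue. The miRNeasy kit served for the antibody-positive lymph nodes and TRIzol for every other sample, so kit and antibody-positive stage cannot be told apart. Ages are those of the labels, and those of mice L25 and H115 lie below the ages that the study's methods give for their stages. By these labels the ages of the lymph node stages did not overlap, so age and stage cannot be told apart.

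Lymph reaches a lymph node through the subcapsular sinus and leaves through the medullary sinuses, and the macrophages on the walls of these sinuses take up particles, microbes and dying cells before they reach the lymphocytes. MARCO is a class A scavenger receptor that binds bacteria and other polyanionic particles. CD209b (SIGN-R1) is a C-type lectin that binds bacterial polysaccharides, and *Cd209g* belongs to the same gene family. TIM-4, encoded by *Timd4*, binds phosphatidylserine on dying cells. SIGLEC1 (CD169, sialoadhesin) binds sialic acid and marks the subcapsular and medullary macrophages. CD5L (AIM) is a secreted scavenger receptor-like protein that macrophages make, and its gene is a known target of the liver X receptor (*Nr1h3*).

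The libraries held between 343825 and 443379 reads, so a gene had few reads. To obtain the listed normalized value, 1 was added to the reads of a gene and the sum was scaled by a library size factor, and a gene with no read was therefore listed at 0.786 to 1.77. The floor was set at 3 reads, which equals 2.36 to 5.32 normalized reads. The libraries of the proteinuric lymph node of mouse H6, the TLS of mouse H115 and the kidney of mouse H117 stood apart, with 31.8%, 21.3% and 55.6% of their reads on ribosomal RNA genes, while in the others this share was between 0.385% and 5.33%. The 13 general macrophage markers were all detected in lymph node, TLS and kidney, and their summed normalized reads were between 2078 and 3642 in the 7 lymph nodes, between 1329 and 2355 in TLS and between 224 and 999 in kidney. The 6 kidney epithelium markers summed to between 2498 and 8334 in TLS and between 2.43 and 12.3 in lymph nodes. The 6 B cell markers summed to between 578 and 1226 in lymph nodes, between 317 and 476 in TLS and between 0 and 21.1 in kidney, where 3 of them had no read. In such bulk libraries, fewer cells of a type and less RNA per cell cannot be told apart.

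The sequence before the start of a gene is shown for the members whose RNA is followed most closely below. RefSeq (build GRCm38.p6) gave the 250 bases before the start for 5 of the 6 members. They are printed up to the first base that GENCODE annotates as the untranslated start of a coding transcript, 5′ to 3′ on the strand of the gene. Capitals mark every match, on either strand, of GAGGAA, the core letters bound by PU.1, which read TTCCTC on the other strand. Of 32851 promoters of the same length, 23.3% held this motif.
Marco, chr1:120505025-120505274, minus strand: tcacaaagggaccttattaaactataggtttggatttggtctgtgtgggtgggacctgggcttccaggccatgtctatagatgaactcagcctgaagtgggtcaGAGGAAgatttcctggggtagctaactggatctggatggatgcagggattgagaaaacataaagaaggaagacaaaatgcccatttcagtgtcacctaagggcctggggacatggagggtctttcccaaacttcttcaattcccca
Cd209b, chr8:3926845-3927091, minus strand: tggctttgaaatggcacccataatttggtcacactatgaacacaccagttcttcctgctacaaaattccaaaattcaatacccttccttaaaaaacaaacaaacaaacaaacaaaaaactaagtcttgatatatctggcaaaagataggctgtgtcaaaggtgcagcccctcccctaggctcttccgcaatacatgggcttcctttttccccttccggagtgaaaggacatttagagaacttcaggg
Timd4, chr11:46810549-46810798, plus strand: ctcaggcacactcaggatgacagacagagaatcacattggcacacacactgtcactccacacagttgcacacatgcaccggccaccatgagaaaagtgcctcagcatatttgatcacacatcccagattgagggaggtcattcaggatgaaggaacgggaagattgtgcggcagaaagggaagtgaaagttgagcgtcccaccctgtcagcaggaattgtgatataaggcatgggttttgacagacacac
Cd5l, chr3:87357631-87357880, plus strand: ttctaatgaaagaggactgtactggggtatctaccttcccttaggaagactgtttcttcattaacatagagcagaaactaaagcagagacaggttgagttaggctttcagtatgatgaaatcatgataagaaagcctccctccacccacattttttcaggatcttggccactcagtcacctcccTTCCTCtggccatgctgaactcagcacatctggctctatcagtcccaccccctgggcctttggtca

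The *Cd5l* window held 1 PU.1 core, beginning 66 bases before the start, and the *Marco* window 1, beginning 146 bases before it. The *Timd4* and *Cd209b* windows held none. These matches describe letters in the reference sequence, and no binding was measured.

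The other pair of sequences is shown because *Cd209g* had a near copy. The windows of *Cd209g* and of *Cd209f*, a lectin gene of the same cluster that is not on the list, shared an unbroken run of 154 bases, marked in capitals as far as it is printed. The RefSeq start of *Cd209g* lies inside the gene as GENCODE annotates it, so all 250 bases of its window are in an annotated exon of that gene.
Cd209g, chr8:4134486-4134651, plus strand: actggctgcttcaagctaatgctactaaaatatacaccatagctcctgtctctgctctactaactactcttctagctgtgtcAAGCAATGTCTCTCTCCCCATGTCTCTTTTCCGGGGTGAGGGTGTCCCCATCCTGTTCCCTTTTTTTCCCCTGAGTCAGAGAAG
Cd209f, chr8:4105836-4106014, minus strand: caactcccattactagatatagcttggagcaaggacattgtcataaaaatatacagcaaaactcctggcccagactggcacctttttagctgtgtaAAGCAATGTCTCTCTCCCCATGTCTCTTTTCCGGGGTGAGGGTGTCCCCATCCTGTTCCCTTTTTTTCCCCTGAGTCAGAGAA

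The likeness of *Cd209g* and *Cd209f* went on into the transcripts. Of the 3890 windows of 50 bases in the annotated *Cd209g* transcripts, 646 (16.6%) were also in *Cd209f* transcripts, and these were 29.8% of the *Cd209f* windows. Reads from the shared stretches could be counted to either gene, so their separate levels are uncertain. No such window of *Marco*, *Cd209b*, *Timd4*, *Cd5l* or *Cd209d* was found in another gene. In *Siglec1*, 1.33% of the windows were shared with other genes. No member overlapped another annotated gene on either strand (GENCODE M21, GRCm38), and *Cd209b* (chr8:3917655-3926844, minus strand) and *Cd209g* (chr8:4134098-4137707, plus strand) lay in the same lectin cluster of chromosome 8.

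*Marco* (ENSMUSG00000026390, chr1:120474538-120505024, minus strand) was measured in every lymph node library and in no other. Its normalized value was 136 in the young lymph node, 126, 75.2 and 132 in those of antibody-positive mice D10, D11 and L25, and 29.0, 81.5 and 50.2 in those of proteinuric mice H6, H20 and H117. The 3 TLS and the 4 kidney libraries held 0 reads, which allows up to 3 reads in each. The lowest proteinuric value was that of mouse H6, a library with much ribosomal RNA, and the highest proteinuric value lay above the lowest antibody-positive one, so the groups overlapped.

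*Cd209b* (ENSMUSG00000065987) was listed at 161 in the young lymph node, at 133, 51.4 and 179 in antibody-positive mice D10, D11 and L25, and at 60.9, 63.5 and 51.8 in proteinuric mice H6, H20 and H117. TLS and kidney again held 0 reads in all 7 libraries. The proteinuric values lay within a narrow range (58.7 ± 6.13, SD, n = 3), and the antibody-positive values spread widely (121 ± 64.7, SD, n = 3), with mouse D11 below all 3 proteinuric mice.

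*Cd209g* (ENSMUSG00000079168) had 21 reads in the young lymph node, 39, 27 and 42 reads in antibody-positive mice D10, D11 and L25, and 0, 6 and 0 reads in proteinuric mice H6, H20 and H117. No read was found in TLS or kidney. The 4 lymph nodes of non-proteinuric mice were thus all above the 3 proteinuric ones, of which only that of mouse H20 had a read.

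*Timd4* (ENSMUSG00000055546, chr11:46810800-46844332, plus strand) was listed at 88.6 in the young lymph node, at 87.1, 55.2 and 97.5 in antibody-positive mice D10, D11 and L25, and at 44.9, 31.3 and 40.5 in proteinuric mice H6, H20 and H117. Beside *Cd5l* it was the only member with a read in every TLS library, 2, 2 and 1 in mice H6, H20 and H115, and it had none in kidney. The 4 non-proteinuric lymph nodes lay above the 3 proteinuric ones.

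*Siglec1* (ENSMUSG00000027322, chr2:131069220-131086765, minus strand) had 17 reads in the young lymph node, 17, 13 and 16 in antibody-positive mice D10, D11 and L25, and 3, 15 and 28 in proteinuric mice H6, H20 and H117. One TLS library (mouse H6) had 1 read and 1 kidney library (mouse H20) had 2. The proteinuric lymph nodes held both the lowest and the highest value of the 7, and the low one was again the library of mouse H6.

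*Cd5l* (ENSMUSG00000015854, chr3:87357881-87371073, plus strand) took the opposite order. It was listed at 11.6 in the young lymph node, at 3.71, 10.5 and 3.44 in antibody-positive mice D10, D11 and L25, and at 46.4, 62.5 and 42.9 in proteinuric mice H6, H20 and H117. In TLS it had 12, 4 and 2 reads in mice H6, H20 and H115, and in kidney 0 in all 4 libraries. The 3 proteinuric lymph nodes were above every other library, and the TLS values overlapped those of the non-proteinuric lymph nodes, with mouse H115 (3.27) below them all.

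**Figure D1:**
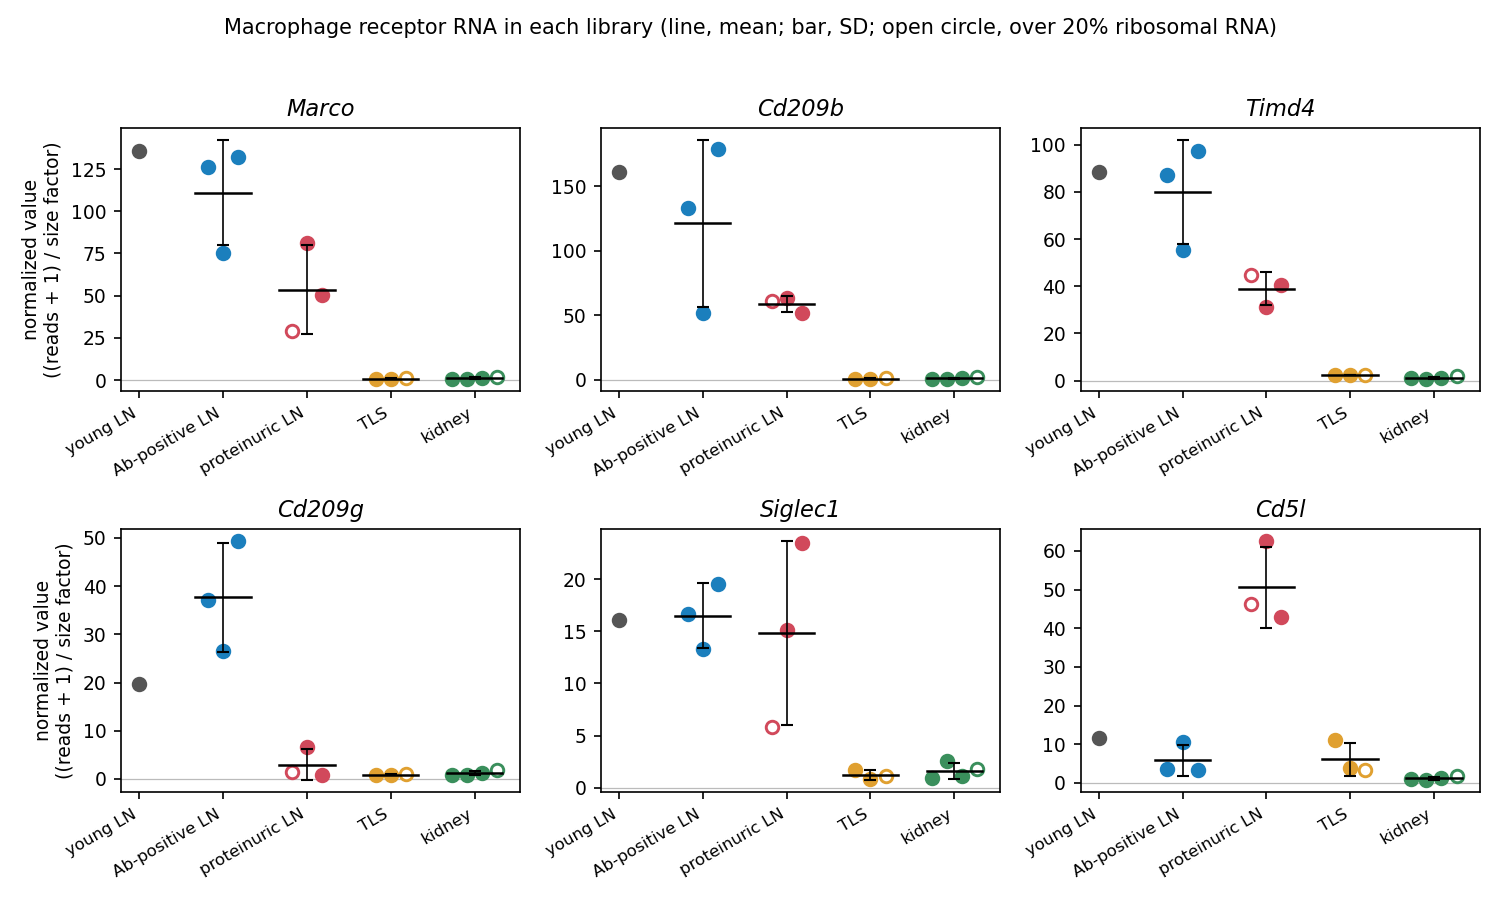
Normalized value (reads plus 1, divided by the size factor) of each of the 6 genes on a linear axis, 1 point per library, for young, antibody-positive and proteinuric lymph nodes (LN), TLS and kidney, with the mean (line) and SD (bar) of groups of 3 or 4 and open circles for libraries with over 20% ribosomal RNA. Points lie near 0 in TLS and kidney for all genes but Cd5l, Cd5l is highest in proteinuric lymph nodes (42.9 to 62.5), and Cd209g is highest in antibody-positive ones.

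Levels of different genes were compared as normalized reads per kilobase of the longest protein-coding transcript. In the antibody-positive lymph nodes *Cd209b* (59.0 ± 31.7, SD, n = 3) and *Marco* (57.2 ± 16.2) had the highest levels, followed by *Timd4* (36.3 ± 10.1) and *Cd209g* (31.4 ± 9.63), and the ranges of these 4 genes overlapped. *Siglec1* (2.43 ± 0.470) and *Cd5l* (2.39 ± 1.98) lay below all of them and did not differ from each other beyond their spread. In the proteinuric lymph nodes *Cd209b* (28.3 ± 2.93), *Marco* (27.3 ± 13.8) and *Cd5l* (24.3 ± 5.17) had overlapping ranges, *Timd4* was at 17.4 ± 3.12, and *Siglec1* (2.15 ± 1.44) and *Cd209g* (1.62 ± 2.81) were lowest. The young lymph node had 78.6 for *Cd209b*, 70.2 for *Marco*, 40.4 for *Timd4*, 16.1 for *Cd209g*, 5.27 for *Cd5l* and 2.38 for *Siglec1*. *Cd5l* was thus among the 2 lowest members in antibody-positive lymph nodes, and its range overlapped that of *Marco* in proteinuric ones.

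The ratio of reads within a library needs no scaling between libraries. For each *Marco* read there were 0.0795 *Cd5l* reads in the young lymph node, 0.0222, 0.128 and 0.0175 in antibody-positive mice D10, D11 and L25, and 1.63, 0.765 and 0.852 in proteinuric mice H6, H20 and H117. For each *Cd209b* read there were 0.117 *Cd209g* reads in the young lymph node, 0.273, 0.509 and 0.271 in the antibody-positive ones, and 0, 0.0909 and 0 in the proteinuric ones. The ratio of *Timd4* to *Marco* reads was 0.649 in the young lymph node, between 0.689 and 0.737 in the antibody-positive ones and between 0.376 and 1.58 in the proteinuric ones, so these 2 genes kept no fixed ratio in the proteinuric group. The ratio of *Cd209b* to *Marco* reads spread from 0.679 to 1.36 in antibody-positive and from 0.776 to 2.16 in proteinuric lymph nodes.

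**Figure D2:**
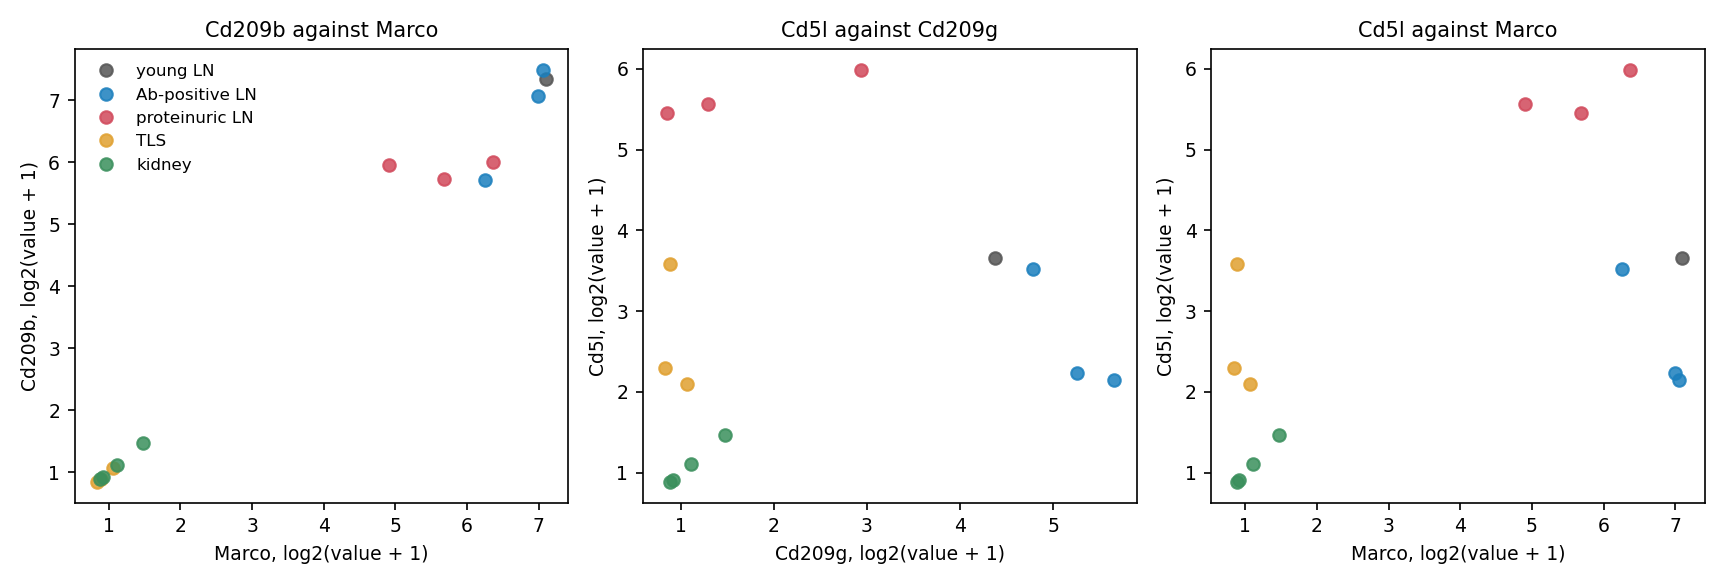
Scatter of log2(normalized value + 1) of Cd209b against Marco, Cd5l against Cd209g and Cd5l against Marco, with 1 point per library in each of the 14 libraries, coloured by group. Cd209b and Marco separate lymph nodes from TLS and kidney, while in the other plots the 3 proteinuric lymph nodes sit at higher Cd5l than every other library, and the 4 other lymph nodes at higher Cd209g than they do.

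Antibody-positive and proteinuric lymph nodes were compared to see which receptors changed between the stages. Differences are on the log2(normalized value + 1) scale, antibody-positive minus proteinuric, with the SE, from limma with Benjamini-Hochberg adjustment over the 6810 genes tested. *Cd209g* was higher in antibody-positive lymph nodes by 3.54 (SE 0.53, adjusted p = 0.155) and *Cd5l* was lower (-3.04, SE 0.41, adjusted p = 0.0999814). Their unadjusted p-values in limma were 0.000137 and 5.87e-05, which ranked *Cd5l* at 4 and *Cd209g* at 6 among the 6810 genes. *Cd209g*, with a mean of 2.96 in proteinuric lymph nodes, passed the filter (a mean value of at least 5) through the antibody-positive ones. Its rank and its p-values in any of these tests therefore add no support beyond the values. Those of *Cd5l* add none either, since it was chosen by its higher values in the same proteinuric lymph nodes. No member was called at an adjusted p under 0.05, and neither was any gene (0%), while 215 genes had an unadjusted p under 0.05. The edgeR quasi-likelihood test also called 0 genes (223 unadjusted). DESeq2 on the same reads called 13 genes, among them *Cd209g* (adjusted p = 0.0278) and *Cd5l* (adjusted p = 0.000317), and a limma fit over all 14 libraries called 7, again with *Cd209g* (adjusted p = 0.0155) and *Cd5l* (adjusted p = 0.0160).

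The other members had smaller differences, and limma gave each an adjusted p of 0.998. *Marco* differed by 1.12 (SE 0.44), *Timd4* by 1.00 (SE 0.34), *Cd209b* by 0.86 (SE 0.47) and *Siglec1* by 0.32 (SE 0.46). Without the proteinuric library of mouse H6 the *Siglec1* difference turned to -0.20 (SE 0.30). As mean normalized reads, *Marco*, *Cd209b* and *Timd4* were each 2.09 to 2.10 times as high in antibody-positive lymph nodes, and *Cd5l* was 10.2 times as high in proteinuric ones. On counts summed over each group, the *Cd209g* ratio was 17.9 (95% exact interval 7.95 to 49.8, counting error only) from 108 against 6 reads, all 6 of them from mouse H20, and the *Cd5l* ratio was 9.93 (5.83 to 18.2) from 148 against 15 reads. The libraries of the 2 groups did not overlap for *Cd209g*, *Timd4* and *Cd5l*, as they did not for 8.58% of all genes tested. The median difference over all genes tested was 0.08. The proteinuric libraries were among those on which the genes were selected. Without the library of mouse H6 the differences were 3.34 for *Cd209g* (adjusted p = 0.375 in limma), -3.09 for *Cd5l* (adjusted p = 0.233 in limma), 0.74 for *Marco*, 1.11 for *Timd4* and 0.89 for *Cd209b*. The *Cd209b* difference was 0.50 without mouse L25 and 1.39 without mouse D11.

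**Figure D3:**
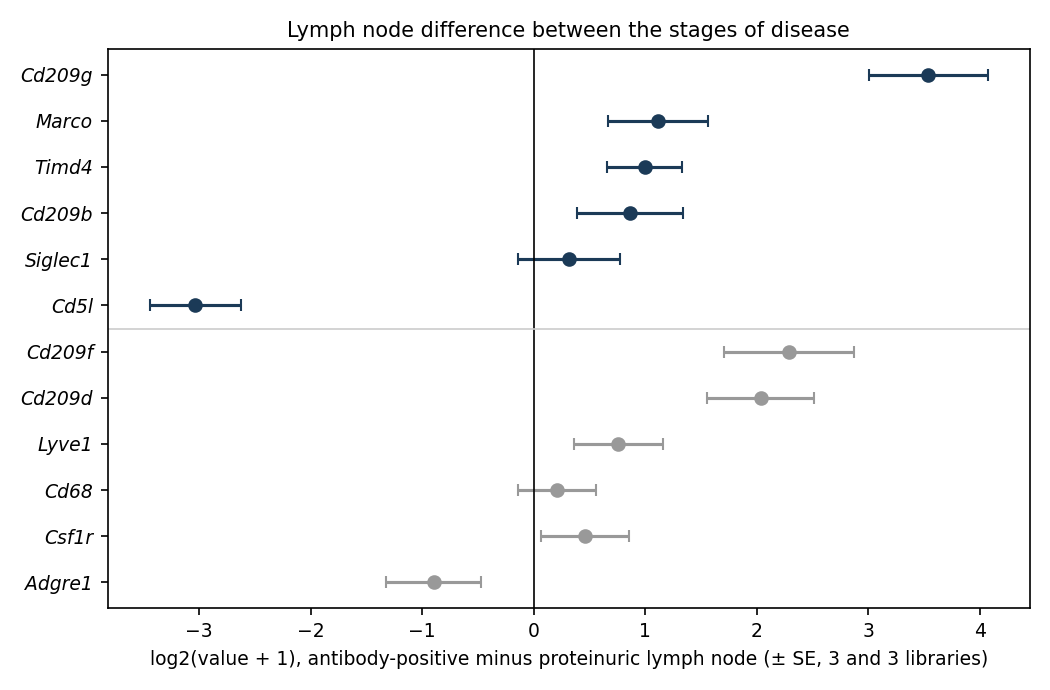
Difference in log2(value + 1) between antibody-positive and proteinuric lymph nodes (3 libraries each), with SE bars, for the 6 members above the line and for Cd209f, Cd209d, Lyve1, Cd68, Csf1r and Adgre1 below it. Cd209g (3.54) and Cd5l (-3.04) lie farthest from 0 on opposite sides, and Cd209f and Cd209d lie on the side of Cd209g.

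The other CD209 lectins measured, *Cd209d* (SIGN-R3) and *Cd209f*, lay on the side of *Cd209g*. *Cd209f* had 18 reads in the young lymph node, 23, 16 and 39 in antibody-positive mice D10, D11 and L25, and 2, 10 and 1 in proteinuric mice H6, H20 and H117. *Cd209d* had 12 reads in the young lymph node, 15, 7 and 13 in the antibody-positive ones, and 1, 3 and 0 in the proteinuric ones. The groups did not overlap for either gene, as they did not for 8.58% of all genes tested. The differences were 2.29 (SE 0.58, adjusted p = 0.866 in limma) for *Cd209f* and 2.04 (SE 0.48, adjusted p = 0.686 in limma) for *Cd209d*. *Cd209f* may share reads with *Cd209g*, so the likeness of these 2 genes is not independent. With a mean of 2.50 in proteinuric lymph nodes, *Cd209d* passed the filter through the antibody-positive ones. *Cd209a* was not analysed here.

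The general macrophage markers did not move with *Marco*, *Cd209b*, *Timd4* and *Cd209g*. Of the 12 markers tested between the stages, 0 were called in limma, 1 had an unadjusted p under 0.05, 10 were lower in antibody-positive lymph nodes, and the median difference was -0.62 against 0.08 over all genes. Their summed normalized reads were 2250 in the young lymph node, between 2078 and 2673 in antibody-positive ones and between 2911 and 3642 in proteinuric ones. *Adgre1* (F4/80) differed by -0.90 (SE 0.43), *Csf1r*, the receptor of macrophage colony-stimulating factor, by 0.46 (SE 0.40), and *Cd68*, a lysosomal glycoprotein of macrophages, by 0.21 (SE 0.35), each with an adjusted p of 0.998 in limma.

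Each member was therefore also expressed relative to the mean log2 value of the 13 general macrophage markers in the same library. On this scale *Marco* was at 0.98 ± 0.48 (SD, n = 3) in antibody-positive and at -0.73 ± 0.56 in proteinuric lymph nodes, a difference of 1.71. The same marker mean was taken from every gene of a library. The subtraction therefore moved the stage difference of each gene by the same amount, and this shift says nothing about a single member. The difference between the stages was 1.46 for *Cd209b*, 1.59 for *Timd4*, 4.13 for *Cd209g* and 0.91 for *Siglec1*. *Cd5l* was at -3.15 ± 0.77 in antibody-positive and at -0.71 ± 0.14 in proteinuric lymph nodes, a difference of -2.44. The libraries of the stages did not overlap on this scale for any member but *Siglec1*. Without the subtraction those of *Marco* and *Cd209b* overlapped as well. The share of all genes without overlap on this scale was not computed, so the count of members cannot be set against it. The young lymph node lay near the antibody-positive ones for *Marco* (1.36), *Timd4* (0.75), *Siglec1* (-1.64) and *Cd5l* (-2.08). These are descriptions, since the marker list was drawn up with results of these data known.

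**Figure D4:**
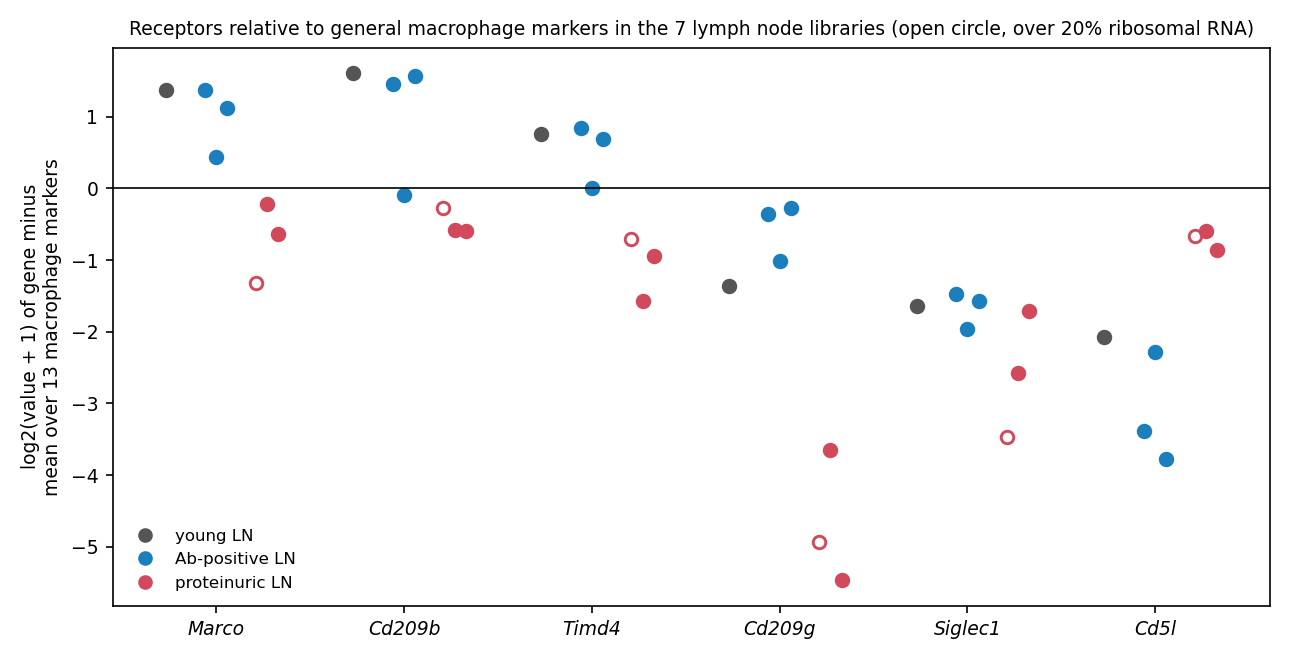
Log2(value + 1) of each of the 6 genes minus the mean over 13 general macrophage markers in the same library, for the 7 lymph node libraries, 1 point per library, open where ribosomal RNA was over 20%. Marco, Cd209b, Timd4 and Cd209g are lower in the 3 proteinuric lymph nodes than in the other 4, Cd5l is higher in them, and Siglec1 overlaps.

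*Lyve1*, a hyaluronan receptor of lymphatic endothelium and of some macrophages, was examined beside the receptors as the marker of the sinus walls. It was listed at 26.8 in the young lymph node, at 18.5, 14.3 and 25.2 in antibody-positive mice D10, D11 and L25, and at 5.80, 15.2 and 13.8 in proteinuric mice H6, H20 and H117, a difference between the stages of 0.76 (SE 0.40, adjusted p = 0.998 in limma). Of the 6 lymphatic and sinus endothelium markers in the table, 1 had no read in any lymph node, and their summed normalized reads were 38.5 in the young lymph node, between 33.3 and 38.0 in antibody-positive and between 8.69 and 26.5 in proteinuric ones. The 6 T cell markers, all detected, summed to 430 in the young lymph node, between 410 and 670 in antibody-positive and between 300.3 and 320 in proteinuric ones, while the B cell sums overlapped. The endothelial and T cell sums moved with *Marco*, *Cd209b*, *Timd4* and *Cd209g*, and their part in these levels was not tested.

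The regulators and growth factors of these macrophages showed smaller differences between the stages than *Cd5l* and *Cd209g*. *Nr1h3* was listed at 19.7 in the young lymph node, at 23.8 to 29.8 in antibody-positive and at 33.2 to 34.1 in proteinuric ones (-0.35, SE 0.26, adjusted p = 0.998 in limma). *Spic*, a transcription factor of red pulp macrophages, had 2 to 6 reads in every lymph node library and 0 in TLS and kidney. *Tnfsf11* (RANKL), a factor for sinus macrophages, had 7 reads in the young lymph node, 1 to 5 in antibody-positive and 0 to 2 in proteinuric ones, and its receptor *Tnfrsf11a* had 1 read in the 7 lymph nodes together. *Csf1* (0.74, SE 0.43) and *Hmox1*, the haem-degrading enzyme (0.16, SE 0.28), each had an adjusted p of 0.998 in limma, and *Mertk*, a receptor for dying cells, was below the filter. Of the 10 transcription factors, 7 growth and niche factors, 7 other scavenger receptors, 6 apoptotic cell receptors and bridges, 4 other Siglecs and 7 iron-handling genes tested, limma called 0. *Cd5l* was not alone in being higher in proteinuric lymph nodes. *Fcgr4*, an Fc receptor for IgG, was listed at 5.56 to 20.0 in antibody-positive and at 126 to 163 in proteinuric ones (-3.50, SE 0.44, adjusted p = 0.0999814 in limma), and *Siglece* at 1.85 to 6.66 and at 8.69 to 36.4 (-2.37, SE 0.57, adjusted p = 0.776 in limma). Both were named after their values were seen.

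Proteinuric lymph node and TLS, the contrast on which the genes were selected, are described without a test. Against 3 reads in the TLS library with the smallest size factor (mouse H115), where they are worth most normalized reads, *Marco* was at least 16.0-fold and *Cd209b* at least 17.6-fold higher in proteinuric lymph nodes. Against young and antibody-positive lymph nodes the bounds were 41.3-fold and 33.6-fold for *Marco* and 49.0-fold and 36.8-fold for *Cd209b*. *Cd209g* was at or under the floor in both proteinuric groups except for the 6 reads of mouse H20, while it was at least 11.2-fold higher in antibody-positive lymph nodes than in TLS. On summed reads, *Timd4* had 111 against 5 reads in TLS, a ratio of 25.1 (95% exact interval 10.4 to 78.8), *Siglec1* had 46 against 1, a ratio of 52.0 (8.88 to 2097) whose TLS count is under the floor, and *Cd5l* had 148 against 18, a ratio of 9.29 (5.68 to 16.1). All 5 members that passed the filter were above TLS in every proteinuric lymph node, as were 9.48% of all genes, which follows from how they were chosen.

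The general macrophage markers are given for the same contrast, in which the members were selected and the markers were not. Over the 13 markers the median difference, proteinuric lymph node minus TLS, was 0.56, the libraries did not overlap for 3 markers higher in lymph node and 1 higher in TLS, and the fitted differences of the 5 members were between 2.69 and 4.97. *Adgre1* was listed at 8.69, 16.1 and 16.2 in proteinuric lymph nodes and at 11.9, 10.2 and 9.81 in TLS. The TLS libraries also held kidney epithelium RNA, as given above, and its part in these levels was not tested.

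Kidney and TLS of proteinuric mice were compared to see whether TLS hold any of these receptors above the kidney around them. *Cd5l* was lower in kidney than in TLS, by 1.57 on the log2(value + 1) scale (-1.57, SE 0.37, adjusted p = 0.0140 in limma over 7382 genes), with 0 reads in 4 kidneys and 2 to 12 in 3 TLS libraries. Of all genes tested, 14.7% were called. *Cd5l* passed the filter through the proteinuric lymph nodes of the same fit, and with only kidney and TLS libraries its mean was below the filter and it was not tested. *Cd5l* was no longer called without the TLS library of mouse H6 (-1.10, adjusted p = 0.0652 in limma), or with a pseudocount of 5 (adjusted p = 0.0539 in limma). It was still called with the mouse as a replicate block, without the kidney of mouse H117 (-1.69, adjusted p = 0.0176 in limma) and without the TLS of mouse H115 (-1.85, adjusted p = 0.00677 in limma). Because *Cd5l* passed the filter through the lymph nodes, none of these calls adds support beyond the reads. *Marco*, *Cd209b* and *Cd209g* had 0 reads in all 7 libraries, so no difference was detectable at this depth. *Timd4*, with 5 reads in TLS and 0 in kidney, was not called in limma but was called with both edgeR scalings, and it and *Siglec1* were under the floor in every library. *Timd4* too passed the filter through the proteinuric lymph nodes, so its calls add no support beyond the reads. Of the 13 general macrophage markers, 6 were called higher in TLS and 0 were called higher in kidney.

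Antibody-positive lymph node and kidney formed the one contrast with no library on which the genes were selected, although tissue, stage and kit cannot be told apart in it. *Marco*, *Cd209b* and *Timd4* were higher in lymph node by 5.67 (SE 0.30, adjusted p = 2.21e-06), 5.66 (SE 0.42, adjusted p = 1.01e-05) and 5.20 (SE 0.30, adjusted p = 3.22e-06) in limma. *Cd209g* was higher by 4.14 (SE 0.30, adjusted p = 9.74e-06) and *Siglec1* by 2.78 (SE 0.33, adjusted p = 0.000141) in limma. Kidney had 0 reads of *Marco*, *Cd209b*, *Timd4* and *Cd209g* and at most 2 of *Siglec1* in a library. All of them therefore passed the filter through the lymph nodes alone. The p-values add no support for the selection, and the fitted values depend on the added 1. Against 3 reads in the kidney library with the smallest size factor (mouse H117), the folds were at least 20.7 for *Marco*, 22.6 for *Cd209b*, 14.8 for *Timd4* and 6.89 for *Cd209g*. *Cd5l* did not pass the filter in this contrast, with a mean of 5.87 in lymph node and 0 reads in kidney, and it was called higher in lymph node with no filter and with one fit over all libraries. Of all genes tested, 22.2% were called higher in lymph node.

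Genes around the receptors are given for this contrast as well. Of all 7419 genes tested, 1647 (22.2%) were called higher in lymph node and 1617 lower. *Cd209f* (3.64, SE 0.38) and *Cd209d* (2.63, SE 0.40) were called higher in lymph node. With 0 reads in kidney, they too passed the filter through the lymph nodes alone. Of 13 general macrophage markers, 9 were called higher in lymph node, among them *Cd68* (2.16, SE 0.71) and *Csf1r*, and 1 lower, *Mertk* (-1.50, SE 0.34), with a median of 1.65. *Adgre1* differed by 0.20 (SE 0.56, adjusted p = 0.791 in limma). Among receptors and bridges for dying cells, *Mfge8*, a bridging protein that binds phosphatidylserine as TIM-4 does, was higher in lymph node (3.39, SE 0.56), and *Havcr1* (KIM-1), a TIM family member of injured tubules, was lower (-3.63, SE 0.95), as were the integrin genes *Itgb5* and *Itgav*. In the lists of Siglecs, iron handling, transcription factors and growth factors, 3 of 3, 3 of 8, 3 of 8 and 3 of 7 genes tested were called higher in lymph node, and 0, 2, 1 and 2 lower.

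The genes most alike in pattern were sought among those with a mean value of at least 5, by Pearson correlation of log2(value + 1) over the 14 libraries. These correlations mostly separate 7 lymph nodes from 7 other libraries, share the library size factors and carry no test. *Marco* was closest to *Cd209b* (r = 0.992), *Lyve1* (0.990) and *Vtn* (0.989), *Timd4* to *Cd209b* (0.988), *Marco* (0.982) and *Folr2* (0.973), and *Cd209b* to *Marco*, *Timd4* and *Folr2* (0.986). *Siglec1* was closest to *Marco* (0.965), *Lyve1* (0.961) and *Dtx1* (0.956). *Cd209g* was closest to *Cd209f* (0.970), with which it may share reads, *Mcpt4* (0.947) and *Cldn5* (0.919). *Cd5l* was closest to *Rnf19b* (0.939), *Fcrl5* (0.884) and *5031414D18Rik* (0.872), none of them a gene alike to another member. The mean of the members was closest to *Folr2* (0.983), *Lyve1* (0.983), *Vtn* (0.980), *Lyz1* (0.974) and *Chst1* (0.972). Over the 7 lymph nodes alone it was closest to *Ube2d2a* (0.976), *Pptc7* (0.968), *Insig2* (0.956), *Postn* (0.947) and *Gtpbp4* (0.947). This mean includes *Cd5l*, which ran against the other members within the lymph nodes, so it mixes opposed patterns there.

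Within the 7 lymph nodes *Cd5l* ran against the others, with r = -0.92 to *Timd4*, -0.89 to *Cd209g*, -0.75 to *Cd209b*, -0.74 to *Marco* and -0.33 to *Siglec1*. *Marco*, *Cd209b*, *Timd4* and *Cd209g* had r between 0.70 and 0.88 with each other. These values rest on 7 libraries in 3 stages, share the library size factors and carry no test.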

How the data were processed

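RNA was measured in 14 Ion Torrent libraries of lymph node, TLS and kidney, and 15 whole kidneys were not analysed here. The authors isolated poly(A) RNA, fragmented and sequenced it, and used CLC Genomics Workbench at default settings to map reads to GRCm38 and count them per gene. How reads of near-identical genes were assigned is not given in the sources used here. The deposited signal is a normalized value per gene, made by adding 1 to the reads and scaling by a DESeq size factor. Whole reads were recovered in 100% of values (tolerance 1e-06), and size factors recomputed from them equalled those of the table. Depth was 343825 to 443379 reads, 406 genes had no read, and intervals and floors cover counting error only.

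Groups were compared with limma 3.58.1 (trend and robust moderation, R 4.3.3) on log2(value + 1) for genes whose mean value reached 5, with Benjamini-Hochberg adjustment over all genes of a fit. Antibody-positive and proteinuric lymph nodes had a fit of their own (6 libraries), kidney and TLS were fitted with the proteinuric lymph nodes (10 libraries), and antibody-positive lymph node and kidney had a fit of 7. Libraries of a group came from separate mice. The alternatives were edgeR 4.0.16 quasi-likelihood tests and DESeq2 1.42.0 on the recovered reads, other filters, pseudocounts and sets of libraries, a replicate block and leaving out each library. The tests were checked on simulated counts with known changes.

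Mouse numbers mark tissues of one animal. Deviations from the tissue means correlated at 0.366, 0.378 and 0.465 in the 3 pairs of TLS and kidney of one mouse. In the 9 pairs of different mice the median was -0.26, with a range from -0.52 to 0.388 that overlapped the pairs of one mouse. The members, gene lists and tests were chosen with earlier results of these data known. The text names all members, a fixed set of related genes, called genes of the lists (at most the 4 with the largest difference in each list) and the genes most alike in pattern. Positions came from GENCODE M21 (GRCm38), and gene lengths from its longest protein-coding transcript.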

Additional observations from a re-analysis of the deposited data

Results flagged for a closer look

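In the group of 4 kidney libraries, 5 values with any spread were examined for a library far from the others. Dixon's criterion, which chance meets in about 1 of 20 groups of normally distributed values, was met by 3. That rate does not hold for *Siglec1* or the sum of the members. Where the other libraries are at 0, any read in a single library meets the criterion. *Siglec1* was at 1.69 normalized reads (2 reads) in the kidney of mouse H20 and at 0 in the others, and since no other member had a read in kidney, the sum of the members was the same 1.69. The count is under the floor of 3 reads. The share of reads on ribosomal RNA genes was 55.6% in the kidney of mouse H117 and between 1.64% and 5.13% in the others. Groups of 3 were not examined in this way.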

How the results depend on the processing

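In the comparison of antibody-positive and proteinuric lymph nodes, limma called 0 genes, and the directions of *Cd209g*, *Cd5l*, *Marco*, *Timd4* and *Cd209b* were the same under all 16 alternatives, while *Siglec1* ran from -0.20 without the proteinuric library of mouse H6 to 0.72 without that of mouse H117. DESeq2 called 13 genes (2 members), one fit over all 14 libraries 7 (2 members), and adding the young library to the antibody-positive group 6. Leaving out each library in turn gave 0 to 5 genes and 0 to 1 members, the 5 genes without antibody-positive mouse D11, when *Cd5l* was called (adjusted p = 0.0488 in limma). The adjusted p over the alternatives ran from 0.0155 to 0.9999 for *Cd209g* and from 0.000317 to 0.602 for *Cd5l*, and the cause of these shifts was not tested. Between kidney and TLS, 1084 genes were called (448 higher in kidney), with edgeR and TMM 830 (169 higher in kidney), with a mean value of at least 20 only 566, and without single libraries between 530 (TLS mouse H6) and 1344 (TLS mouse H115), with 692 without the kidney of mouse H115. The members called were 2 with either edgeR scaling (*Cd5l* and *Timd4*) and 0 with a pseudocount of 5, and 0 with a mean of at least 20 or only kidney and TLS libraries, where *Cd5l* did not pass the filter, and 0 to 1 when single libraries were left out. *Cd5l* and *Timd4* passed the filter of this fit through the proteinuric lymph nodes, so their calls add no support. The replicate block by mouse called 1204 genes and changed no member call. Between antibody-positive lymph node and kidney, a mean value of at least 20 left 1326 genes and 3 members called, since fewer genes were tested, and the 5 members kept their call wherever they were tested. Between proteinuric lymph node and TLS the *Marco* difference was between 3.21 and 8.65 and that of *Cd209b* between 3.43 and 8.79, the lowest with a pseudocount of 5 and the highest with TMM on reads, as TLS had no read. With 3 reads as the floor, members under about 2.36 to 5.32 normalized reads could not be separated from 0.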
